A study of Mus musculus with 16 samples.

Results

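The genes described here encode the enzymes that attach ubiquitin and its relatives NEDD8 and SUMO to other proteins, together with the cullin scaffolds that NEDD8 activates. The rule takes in every non-control probe on the array whose gene symbol begins with Ube2, Cul and a digit, Nedd4, or Cops and a digit, or is Nedd8, Fbxw7, Uba3, Ube1x or Ube1c. This gave 123 probes for 52 gene symbols among the 41174 non-control probes of the array. RNA of lumbar spinal cord was measured in 4 groups of 4 arrays, namely wild-type (non-transgenic) mice and mice carrying the SOD1G93A transgene, each at 40 days and at 80 days of age. All animals were of the B6SJL background, and the methods state that they were males, 5 to a group, with 4 arrays of each group kept. The transgene is a mutant human superoxide dismutase, and mice that carry it develop a motor neuron disease used as a model of amyotrophic lateral sclerosis. Cord RNA was labelled with Cy3 and hybridised beside a Cy5-labelled pool of neonatal heart, kidney and liver RNA from both genotypes, with the same dye orientation on every array. Each value is therefore a log2 ratio of cord over pool, on which 1 unit is a 2-fold difference, and a change is the difference between the mean log2 ratios of groups. In whole cord, fewer cells of a type and less RNA per cell cannot be told apart.

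Ubiquitin is activated by an E1 enzyme, handed to one of many E2 conjugating enzymes (most of the Ube2 genes) and placed on its target with the help of an E3 ligase. The largest family of E3 ligases is built on cullins, which become active when the ubiquitin-like protein NEDD8 is attached to them by its own E1 (Ube1c, now Uba3, with a partner) and its own E2s (Ube2m and Ube2f), and which are reset when the COP9 signalosome (the Cops genes) removes it. Ubiquitin conjugates and ubiquitin-positive inclusions are a known feature of motor neurons in this disease and its mouse models.

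The 16 arrays lay on 4 slides of 4, with replicate 1 of every group on one slide and so on, and each group always at the same position, so that position and group cannot be told apart. Between 46.1% and 55.3% of non-control probes were well above background in Cy3 and between 57.1% and about 70% in Cy5. Local backgrounds far brighter than their own spot were reset on 3 arrays, at 63 spots of SOD1G93A replicate 4 at 80 days and at 4 and 5 spots of the others. Markers of neurons, astrocytes and oligodendrocytes were far above the reference, with mean log2 ratios of 7.21 for Snap25, 6.44 for Gfap and 3.61 for Mog at 1 probe of each. Of the motor neuron markers, Slc18a3 and Slc5a7 were well above background on 16 arrays, whereas the 2 Chat probes were so on 1 array and on 0. The labels call the arrays of a group biological replicates, and p-values measure the spread between these arrays. Probes entered a test when at least 3 of 4 arrays in some group showed them well above background.

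Results below turn on single 60-base probes, and the first 30 bases of those that matter most are given here 5′ to 3′ in lower case, with the mm7 coordinates that the array files state. The first set holds the NEDD8 probe and both probes of its conjugating enzyme Ube2m, shown because they changed in opposite directions at 80 days.
Nedd8, chr14:50529907-50529966, minus strand: agacagcagctgattacaagattctaggtg
Ube2m, probe A_52_P665386, chr7:11622171-11622230, minus strand: atcgggtccacctacttcgagcgctgcctg
Ube2m, probe A_51_P100246, chr7:11622325-11622471, minus strand: agtccttacgataaactccataatttatgg
The second set shows genes whose probes gave different answers, with the probe that changed at 80 days first and after it a probe of the same gene that did not pass at that age. The coordinates of the first Cul5 probe cover 2098 bases, so its 60 bases are not contiguous in the genome. Capitals in the second Ube2b probe mark 19 bases shared with a further probe of that gene.
Cul5, probe A_52_P268378, chr9:53623277-53625374, minus strand: tatggaagacagtattgttcgaaagctcat
Cul5, probe A_51_P499802, chr9:53593493-53593552, minus strand: tatgtgtggtctggagttcctaaggtgtag
Ube2b, probe A_52_P454950, chr11:51942612-51942671, minus strand: cttttgattaaaaagaaagtaaaaccatca
Ube2b, probe A_51_P244690, chr11:51943413-51943472, minus strand: GGCCATTGTTGAGCAAAGCtggaatgattc
Ube2o, probe A_51_P499061, chr11:116647110-116647169, minus strand: ataatgtgaagctccaggtagagaggatgc
Ube2o, probe A_51_P184573, chr11:116653423-116653482, minus strand: aaagagcattcccttgtccatcaaaaactt
The last set holds a probe of Ube2d3 whose genotype change differed between the ages, and a dim probe of Ube2g2 that is given below as a value alone. Their coordinates cover 2929 and 1950 bases.
Ube2d3, probe A_52_P229709, chr3:135254410-135257338, plus strand: taactatttctaaagttcttttatccattt
Ube2g2, probe A_51_P248441, chr10:77296136-77298085, plus strand: agattcacctgtgagatgttccatcccaac

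Of the 108 member probes tested over all arrays, the coordinates of 81 cover as many bases as the probe holds, those of 23 cover more and those of 4 cover fewer. Over all 123 member probes GC content ran from 18.3% to 58.3%, with a median of 40.0%. No pair of probes of different member genes shared a run of 15 bases or more (0 pairs), whereas probes of 6 genes overlapped another probe of the same gene.

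Normalization within arrays centres the log2 ratios of all probes near 0, so a median near 0 does not show equal RNA levels in cord and pool. The median log2 ratio of members was 0.12, against 0.084 over all 21953 probes tested. Quartiles were −0.35 and 0.57 for members, against −0.43 and 0.61. The median spread within a group was 0.083 (SD) for members, against 0.099. The highest members were Ube2v2 at 1.87, Ube2o at 1.46, Ube2e2 at 1.45 and Ube2n at 1.44, where Ube2n and Ube2v2 form the E2 that builds lysine 63-linked ubiquitin chains. The lowest was Ube2c at −2.01, the E2 of the anaphase-promoting complex of dividing cells. Ube2t, which serves DNA crosslink repair, was at −1.21 and Ube2l6, the E2 of the interferon-induced modifier ISG15, at −1.45. Log2 ratios stayed above 1 on all 16 arrays for 5 member probes (4.63%, against 12.1% of all probes) and below −1 for 8 (7.41%, against 7.98%). These levels are a description, since dyes were not swapped. For 15 of the 123 probes the cord signal did not pass the filter on dim spots in any fit, and Ube2u was the 1 gene left with no tested probe.

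The study compared genotypes at ages before symptoms, and the members were compared in the same way. At 80 days, 19 of 108 member probes (17.6%) passed an unadjusted p under 0.05 by limma, the threshold of the study's methods, against a background of 6.86% of all probes. Of these 19, which belong to 16 genes, 14 were higher in SOD1G93A cord, where the background was 3.68%, and 5 were lower, where it was 3.18%. After Benjamini-Hochberg adjustment over all 21603 probes, 0 member probes passed, the smallest adjusted p by limma being 0.667. At 40 days, 5 of 107 member probes (4.67%) passed, near the background of 4.51%. Here 3 were higher, with a background of 2.5%, and 2 lower, with a background of 2.02%, and 0 passed after adjustment (smallest adjusted p 0.997). The median change of all tested members was 0.016 at 80 days, where that of all probes was −0.0020, and 0.0014 at 40 days, where it was 0.0030. With 1 probe for each of 51 genes, the brightest, 7 genes were higher and 3 lower at 80 days, and 1 was higher and 0 lower at 40 days. The brightest probes of all genes were not counted, so these gene counts have no background of their own.

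**Figure D1:**
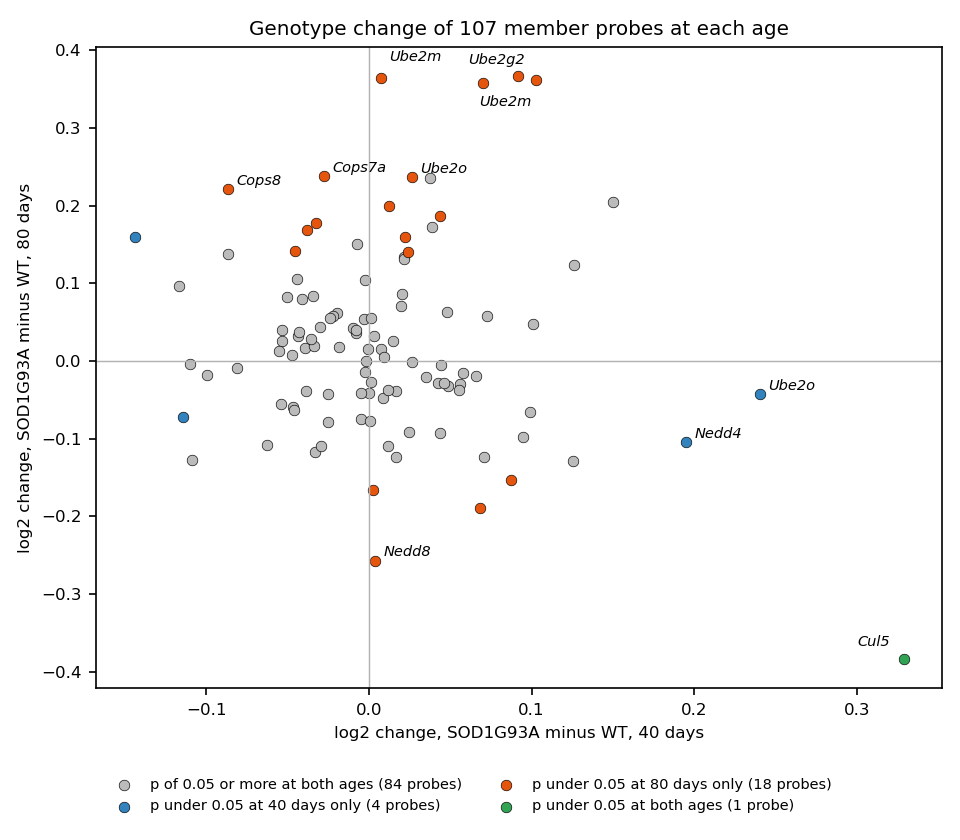
Log2 change between genotypes (SOD1G93A minus wild-type) at 40 days on the horizontal axis and at 80 days on the vertical axis, for the 107 member probes tested at both ages. Each point is 1 probe; 18 passed an unadjusted p under 0.05 at 80 days only, 4 at 40 days only and 1, a Cul5 probe, at both ages, on opposite sides of 0.

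The plot of the changes at both ages shows that member probes past the threshold at 80 days mostly sat near 0 on the 40-day axis. Complete separation, with every array of a genotype above every array of the other, was found for 6 member probes at 80 days, against a background of 4.33%, with 3 higher and 3 lower. At 40 days it was also found for 6, against a background of 2.86%, with 2 higher and 4 lower. The exact permutation test of 4 arrays against 4 cannot give a p below 0.0286, which is the value at complete separation.

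The count at 80 days rested on few arrays. It was 5 probes (4.63%, background 4.52%) without SOD1G93A replicate 3, 6 (5.56%, background 5.07%) without SOD1G93A replicate 2, 7 (6.48%, background 4.99%) without wild-type replicate 4 and 9 (8.33%, background 5.45%) without wild-type replicate 2. Without any 1 of the other 4 arrays it was 15 or 16 (13.9% or 14.8%, background 7.74% to 8.58%). Without wild-type replicate 3, however, the split of the 16 was 7 higher and 9 lower. With only the probes well above background on every array it was 18 of 104 (17.3%, background 7.16%). Among the 14 probes that were higher, the highest of the 8 arrays was SOD1G93A replicate 3 for 8 probes, replicate 2 for 4 and replicate 1 for 2. The lowest of the 8 was wild-type replicate 4 for 6 of them, replicate 3 for 4, replicate 2 for 3 and replicate 1 for 1. Among the 5 that were lower, SOD1G93A replicate 4 was lowest for 4 and replicate 3 for 1, and without replicate 4 the number that were lower was 3. That array also stood apart in the median deviation of microglial probes from their mean log2 ratio over the 16 arrays, at 0.82 against −0.23 to 0.04 on the other 3 SOD1G93A arrays, and of interferon-induced genes, at 0.62 against −0.02 to 0.07. Without the array the calls of Nedd8 (−0.19, in place of −0.26) and Cul5 held, and those of Ube2b, Ube2q2 and Ube2w were lost. The part of the microglial and interferon-induced genes in the falls was not tested. The calls that held whichever array was left out were those of Nedd8 (largest p by limma 0.0193), of a Cul5 probe (0.0445) and of a Ube2o probe (0.0487).

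Precision limits what could be seen. The 95% interval of a member's genotype change had a median half-width of 0.16 at 80 days and 0.14 at 40 days. It lay wholly within 0.25 of 0 on either side for 61 of 108 probes at 80 days and for 83 of 107 at 40 days, and for the others the interval reached past that size.

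Nedd8, the modifier that activates cullins, was lower in SOD1G93A cord at 80 days. Its log2 ratios were 0.77, 0.73, 0.69 and 0.63 on the wild-type arrays and 0.56, 0.51, 0.46 and 0.26 on the SOD1G93A arrays. Every SOD1G93A array was below every wild-type array, with replicate 4 the lowest. It fell by 0.26 (SE 0.076, unadjusted p by limma 0.0066, exact permutation p 0.0286), and the difference within each slide ran from −0.21 to −0.37. At 40 days the arrays overlapped fully, at 0.53, 0.67, 0.66 and 0.53 in wild-type cord and 0.67, 0.57, 0.52 and 0.65 in SOD1G93A cord. The change there was 0.0036, with a 95% interval of −0.13 to 0.14. Nedd8 was measured by 1 probe.

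Ube2m, the E2 that passes NEDD8 to most cullins, was higher at 80 days on both of its probes. On the brighter one the ratios were 1.16, 1.11, 0.87 and 0.59 in wild-type cord and 1.18, 1.54, 1.37 and 1.08 in SOD1G93A cord. The genotypes overlapped, since SOD1G93A replicate 4 was below 2 wild-type arrays. It rose by 0.36 (95% interval 0.05 to 0.67, unadjusted p by limma 0.0266), and the other probe by 0.36 as well (p by limma 0.034). The exact permutation p was 0.114 for each, and both calls were lost without wild-type replicate 3, wild-type replicate 4, SOD1G93A replicate 2 or SOD1G93A replicate 3 (p up to 0.0812 and 0.102). At 40 days the brighter probe changed by 0.07, with an interval of −0.34 to 0.48, so that this gene varied more between arrays than most members. Its 40-day ratios spread from 0.78 to 1.45 in wild-type cord and from 0.66 to 1.45 in SOD1G93A cord. Ube1c, the catalytic subunit of the NEDD8 E1, changed by −0.027 at 80 days (interval −0.17 to 0.11), and the 3 probes of Ube2f, the E2 that pairs NEDD8 with Cul5, by 0.042 to 0.12 (none past the threshold). Of the 7 probes of NEDD8 and its enzymes, 2 rose and 1 fell at 80 days (42.9%, against 6.86% of all probes) and 0 passed at 40 days. These 7 probes belong to 4 genes, and the 2 that rose were both of Ube2m, so they are not independent of each other.

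**Figure D2:**
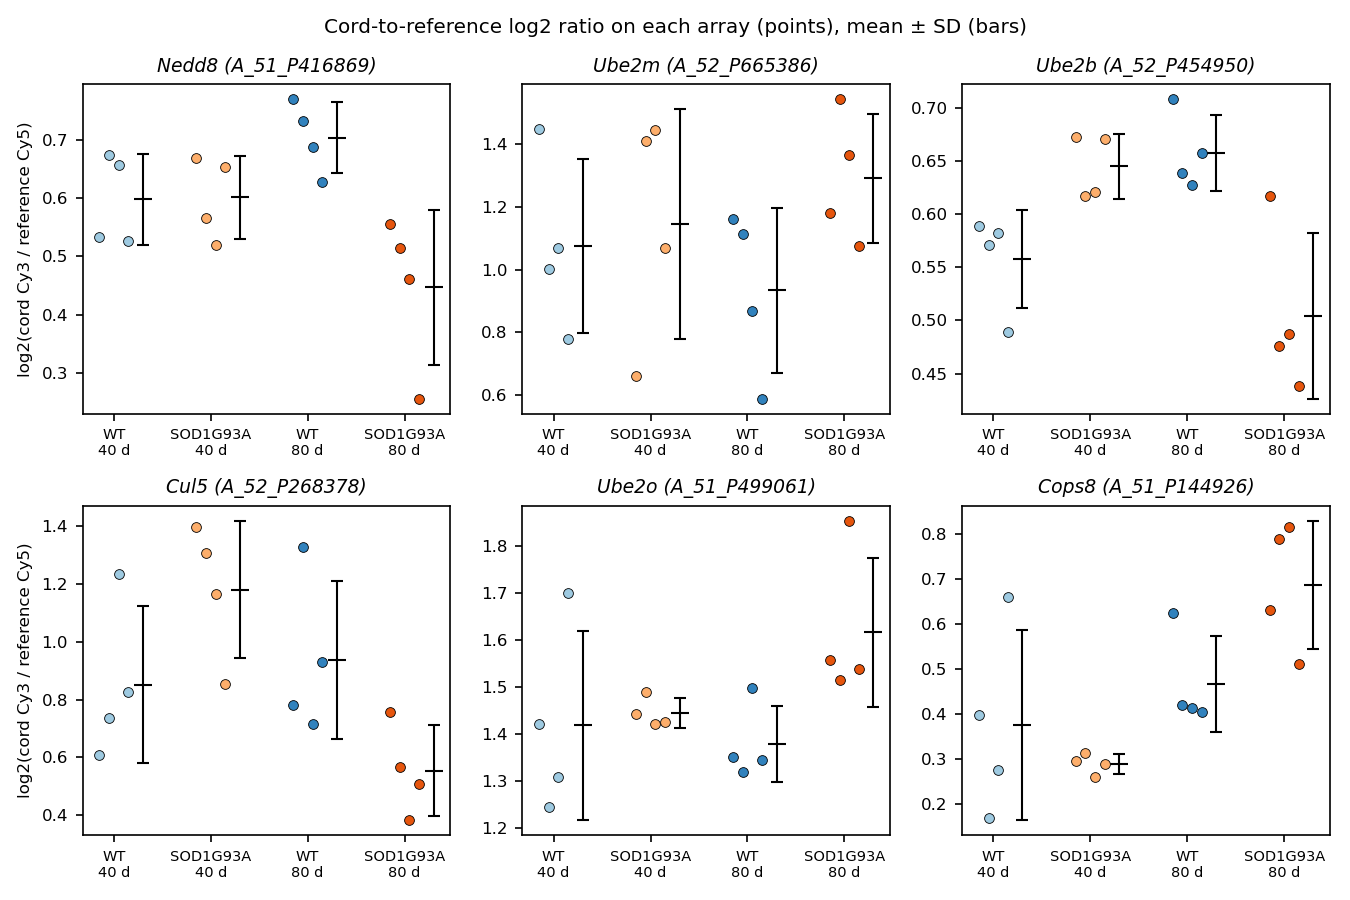
Log2 ratio of cord (Cy3) over reference pool (Cy5) on each of the 16 arrays for Nedd8, Ube2m, Ube2b, Cul5, Ube2o and Cops8, 1 probe each, in 4 groups (wild-type and SOD1G93A at 40 and 80 days). Points are arrays and bars the mean ± SD of 4; the genotypes separate fully at 80 days for Nedd8, Ube2b and Ube2o and overlap in the other 3 panels.

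Of 16 tested probes of 7 cullins, the scaffolds themselves, 1 fell and 0 rose at 80 days. This share (6.25%) was near that of all probes (6.86%), and the median change was −0.011. The probe that fell was that of Cul5, the scaffold that takes SOCS-box substrate receptors, which measured 0.78, 1.33, 0.72 and 0.93 in wild-type cord and 0.76, 0.57, 0.38 and 0.51 in SOD1G93A cord. Only SOD1G93A replicate 1 reached into the wild-type range. It fell by 0.38 (unadjusted p by limma 0.0148, exact permutation p 0.0571). At 40 days the same probe was higher in SOD1G93A cord, at 1.40, 1.31, 1.16 and 0.85 against 0.61, 0.74, 1.23 and 0.83. It rose by 0.33 there (p by limma 0.0491, exact permutation p 0.114). The other 3 Cul5 probes did not pass at either age, with changes at 80 days of −0.12 (interval −0.29 to 0.05), −0.037 (−0.19 to 0.12) and −0.028 (−0.21 to 0.15). Outside Cul5, cullin changes at 80 days ran from −0.12 for a Cul4b probe to 0.11 for a Cul4a probe.

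The COP9 signalosome, which removes NEDD8 from cullins, had 3 of 11 probes higher (27.3%, against 3.68% of all probes) and 0 lower at 80 days. Of the 11 changes 8 were above 0, with a median of 0.054, where that of all probes was −0.0020. Cops8, the smallest subunit, measured 0.63, 0.42, 0.41 and 0.40 in wild-type cord and 0.63, 0.79, 0.82 and 0.51 in SOD1G93A cord. Wild-type replicate 1 was level with SOD1G93A replicate 1 and above replicate 4. Cops8 rose by 0.22 (unadjusted p by limma 0.0261, exact permutation p 0.0571), a call lost without wild-type replicate 2, 3 or 4 or SOD1G93A replicate 2 or 3 (p up to 0.0756). Cops7a rose by 0.24 on 1 probe (p by limma 0.0371) and measured 0.061 on the other. Cops6, the partner of the catalytic subunit, rose by 0.14 on 1 probe (p by limma 0.0427) and measured 0.054 on the other. The probe that rose had 0.83, 0.79, 0.80 and 0.82 in SOD1G93A cord against 0.65, 0.65, 0.59 and 0.79. With 1 array left out at a time, the Cops7a call was lost without 5 of the 8 arrays and the Cops6 call without 7 (p by limma up to 0.107 for each). The catalytic subunit Cops5 itself measured −0.041 (interval −0.21 to 0.13) and 0.014 (−0.17 to 0.20). At 40 days 0 of 10 tested COP9 probes passed, and changes lay between −0.086 and 0.024.

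Ubiquitin itself enters through Ube1x (now Uba1), its main E1. Of 2 probes, 1 rose by 0.16 at 80 days (unadjusted p by limma 0.0431), with 1.11, 1.02, 0.90 and 0.99 in wild-type cord and 1.12, 1.21, 1.25 and 1.07 in SOD1G93A cord. The other measured 0.048. The call was lost without any 1 of wild-type replicates 2, 3 and 4 and SOD1G93A replicates 1, 2 and 3 (p up to 0.113).

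Ubiquitin E2 enzymes made up the bulk of the set, with 56 tested probes of 25 genes. At 80 days 5 rose and 3 fell (14.3%, against 6.86% of all probes). At 40 days 1 rose and 2 fell, a share (5.36%) near that of all probes (4.51%). The medians were 0.011 and −0.0013. None of the 6 probes of the E2 variants Ube2v1 and Ube2v2 (0 of 6) passed at either age. Those that changed at 80 days served different branches of the system.

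Ube2o, a large enzyme that acts as E2 and E3 at once, rose on its brightest probe. It measured 1.35, 1.32, 1.5 and 1.35 in wild-type cord and 1.56, 1.52, 1.85 and 1.54 in SOD1G93A cord. The genotypes separated fully, with SOD1G93A replicate 3 well above its group. The rise was 0.24 (SE 0.085, unadjusted p by limma 0.0188, exact permutation p 0.0286), between 0.19 and 0.36 within slides. The other Ube2o probe did not follow, with −0.042 at 80 days (interval −0.43 to 0.34).

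Ube2g2, a cytosolic E2 that serves protein degradation at the endoplasmic reticulum, measured 0.23, −0.03, −0.16 and −0.32 in wild-type cord and 0.12, 0.39, 0.56 and 0.13 in SOD1G93A cord on probe A_51_P116130. Wild-type replicate 1 lay within the SOD1G93A range. The rise was 0.37 (unadjusted p by limma 0.0185, exact permutation p 0.0857), and it was lost without wild-type replicate 4 or SOD1G93A replicate 3 (p up to 0.0573). Probe A_51_P248441 differed by 0.17, at −0.05, −0.06, −0.12 and 0.08 against 0.11, 0.20, 0.12 and 0.09. That probe was dim, being well above background on 2 of 4 wild-type arrays and 4 of 4 SOD1G93A arrays, so that it entered the test through the group in which it was higher, and its test is not used as support although the counts hold it. The brightest Ube2g2 probe measured 0.14 (interval −0.06 to 0.34). Ube2j2, anchored in the membrane of the endoplasmic reticulum, rose by 0.14 on 1 of its probes (p by limma 0.0467), whereas the probes of its relative Ube2j1 measured 0.097 (interval −0.41 to 0.61) and 0.019.

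Ube2h rose by 0.18 on 1 of 3 probes (unadjusted p by limma 0.0236), at 0.59, 0.63, 0.67 and 0.54 in SOD1G93A cord against 0.57, 0.36, 0.42 and 0.36. Its other probes measured −0.042 and −0.015.

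Ube2b, a homologue of yeast Rad6 with roles in DNA damage tolerance and histone ubiquitination, fell on 1 of 5 probes. It measured 0.71, 0.64, 0.63 and 0.66 in wild-type cord and 0.62, 0.48, 0.49 and 0.44 in SOD1G93A cord, with no overlap. The fall was −0.15 (unadjusted p by limma 0.0287, exact permutation p 0.0286), and its other probes measured between −0.032 and 0.058. Ube2w, which ubiquitinates the amino end of proteins, also separated fully, at 0.36, 0.44, 0.37 and 0.50 against 0.28, 0.36, 0.20 and 0.17, and fell by 0.17 (p by limma 0.028). Its call was lost without wild-type replicate 2 or 4 or SOD1G93A replicate 3 or 4, and its other tested probe measured −0.092. Ube2q2 fell by 0.19 on 1 of 4 probes (p by limma 0.0391). The call for Ube2b was lost without wild-type replicate 1 or 4 or SOD1G93A replicate 2, 3 or 4 (p up to 0.0733).

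Among the ligases named in the rule, Fbxw7, the substrate receptor of a Cul1-based ligase for cyclin E, Myc and Notch, rose by 0.20 on 1 probe at 80 days (unadjusted p by limma 0.0422). It measured 1.31, 1.21, 1.07 and 1.46 in wild-type cord and 1.55, 1.48, 1.35 and 1.47 in SOD1G93A cord, with wild-type replicate 4 inside the SOD1G93A range. The brighter Fbxw7 probe measured −0.021 (interval −0.18 to 0.14), with 0.88, 0.97, 0.95 and 1.15 against 0.90, 1.02, 0.93 and 1.02. Nedd4, a HECT ligase of membrane proteins, measured −0.10 at 80 days (interval −0.31 to 0.10) on its brighter probe and 0.028 on the other. Nedd4l measured −0.074 (interval −0.22 to 0.07).

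**Figure D3:**
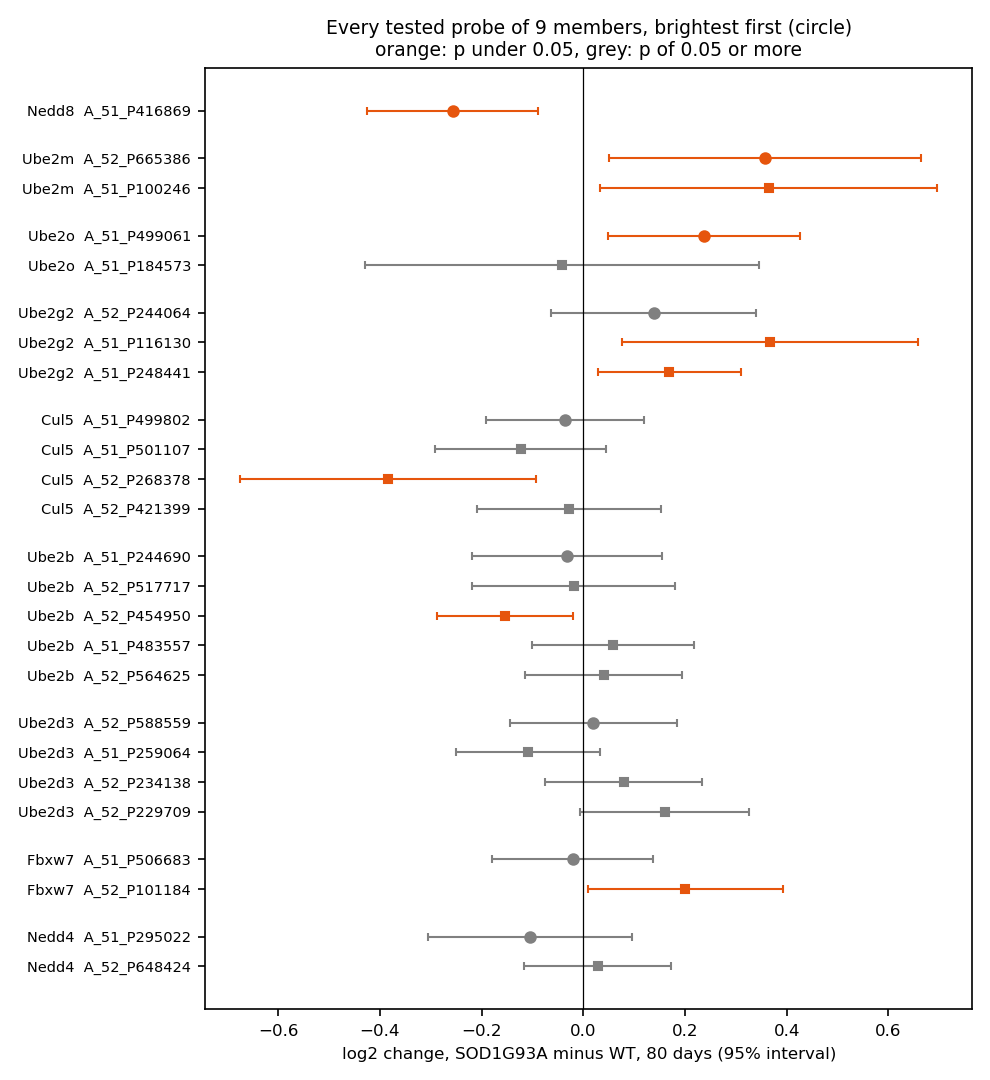
Log2 change between genotypes at 80 days (SOD1G93A minus wild-type) with its 95% interval for every tested probe of 9 members, the brightest probe of each gene first and drawn as a circle, the others as squares. Orange marks an unadjusted p under 0.05; both Ube2m probes are orange, whereas Cul5, Ube2b and Fbxw7 each have 1 orange probe among grey ones.

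The plot of every tested probe shows how far a result belonged to a probe rather than to a gene. Of the genes with several tested probes, all probes had the same sign in 20 of 36 at 80 days and in 16 of 35 at 40 days. Among called genes with several tested probes at 80 days, Ube2m was the only one whose tested probes all passed.

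At 40 days the 5 changes were single probes as well. Ube2o rose on the dimmer of its probes, at 0.70, 0.48, 0.48 and 0.42 in SOD1G93A cord against 0.23, 0.17, 0.33 and 0.39. Every SOD1G93A array was above every wild-type array, and the rise was 0.24 (SE 0.076, unadjusted p by limma 0.0102, exact permutation p 0.0286). It held whichever array was left out (p up to 0.031), but the brighter Ube2o probe, which rose at 80 days, measured 0.026 at 40 days. Ube2d3, one of the general-purpose E2s, fell by 0.14 on 1 probe (p by limma 0.0248), at −1.76, −1.78, −1.72 and −1.85 against −1.61, −1.66, −1.71 and −1.57, with no overlap, whereas its brightest probe measured −0.034. Ube2l3, an E2 of HECT and RBR ligases, separated fully at −0.38, −0.38, −0.34 and −0.33 against −0.25, −0.20, −0.25 and −0.26 and fell by 0.11 (p by limma 0.0353). Its call was lost without any 1 of 6 of the 8 arrays (p by limma up to 0.0806), and its other probe measured 0.048. Nedd4 rose by 0.19 (p by limma 0.031, exact permutation p 0.0857), at −0.50, −0.45, −0.50 and −0.26 against −0.71, −0.67, −0.45 and −0.66, with wild-type replicate 3 inside the SOD1G93A range. The count of 5 fell to 2 without wild-type replicate 1, wild-type replicate 2 or SOD1G93A replicate 2 (1.87%, backgrounds 5.12%, 3.48% and 3.4%). It was 3 without SOD1G93A replicate 1 or 3 (2.8%, backgrounds 3.81% and 3.44%), and rose to 9 without wild-type replicate 4 (8.41%, background 8.97%). With the slide as a block it was 2 (1.87%, background 4.56%).

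Whether the genotype change differed between the ages was tested directly over all 16 arrays, as the change at 80 days minus that at 40 days. Of 108 member probes, 11 (10.2%) passed an unadjusted p under 0.05 by limma, against a background of 6.72%. Of these, 5 were more positive at 80 days, with a background of 3.08%, and 6 more negative, with a background of 3.64%, and 0 passed after adjustment (smallest adjusted p by limma 0.543). Ube2b had the smallest p. Its probe was above wild-type on every SOD1G93A array at 40 days, at 0.67, 0.62, 0.62 and 0.67 against 0.59, 0.57, 0.58 and 0.49, and below it on every array at 80 days. The difference was −0.24 (p by limma 0.00341, exact permutation p over 4900 relabellings within ages 0.000408).

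Ube2d3 went the other way, with a difference of 0.30 (p by limma 0.0038, exact permutation p 0.00122), its 80-day ratios being −1.77, −1.68, −1.72 and −1.73 in SOD1G93A cord and −2.07, −1.91, −1.74 and −1.82 in wild-type cord. Cul5 had a difference of −0.71 on the probe described above (p by limma 0.00402, exact permutation p 0.0098). Nedd8 differed by −0.26 (p by limma 0.0145, exact permutation p 0.029). These single probes of Ube2b, Ube2d3, Cul5 and Nedd8, and 1 Ube2q2 probe, kept an unadjusted p under 0.05 whichever array was left out. No other tested probe of Ube2b (5 tested), Ube2d3 (4) or Cul5 (4) passed. The brightest probes of Ube2b and Ube2d3 moved the same way between ages, but not every probe did. Ube2d3 probe A_51_P259064 changed by 0.012 at 40 days and −0.11 at 80 days. Ube2b probe A_51_P483557 changed by −0.022 and 0.058. The dim Ube2g2 probe had 0.21 and is given as a value alone, since at both ages it was well above background on 2 of 4 wild-type arrays and 4 of 4 SOD1G93A arrays. The remaining probes of the 11 were Nedd4 (−0.30), a second Ube2q2 probe (−0.26), Ube2j2 (0.19), Cops8 (0.31) and the brightest Ube2g2 probe (0.23). The first Ube2q2 probe had −0.25. For Ube2m, which rose at 80 days and did not pass at 40, the difference between ages did not pass, at 0.29 with an interval of −0.24 to 0.82 for the brightest probe. Ube2o likewise had 0.21 with −0.06 to 0.48. The count of 11 was 6 without SOD1G93A replicate 3 at 80 days (5.56%, background 5.52%). It was 7 without wild-type replicate 1 or wild-type replicate 4 at 40 days (6.48%, backgrounds 6.3% and 5.89%).

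Change with age was compared within each genotype. In wild-type cord 9 member probes (8.33%) differed between 80 and 40 days, against a background of 15.2%. Of these 3 were higher at 80 days, with a background of 6.95%, and 6 lower, with a background of 8.23%, and 6 probes separated fully, with a background of 7.66%. Ube2g1 fell on 2 probes. On the probe with the larger fall, the dimmer of the pair, 40-day ratios of −0.53, −0.49, −0.40 and −0.48 became −0.99, −0.68, −0.89 and −0.76, a change of −0.36 (p by limma 0.000109), the 1 member with an adjusted p under 0.05 in this comparison (0.0164). In SOD1G93A cord the same probe fell by 0.20 (p by limma 0.0118, adjusted p 0.173). Ube2d3 fell by 0.25 in wild-type cord (p by limma 0.00121) and Ube2q2 rose by 0.27 (p by limma 0.00115), against 0.055 and 0.019 in SOD1G93A cord. The count of 9 was 5 without wild-type replicate 1 at 80 days (4.63%, background 12.1%).

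In SOD1G93A cord 20 member probes (18.5%) differed between the ages, against a background of 16.9%. Of these 11 were higher at 80 days, with a background of 8.6%, and 9 lower, with a background of 8.3%, and 20 probes separated fully, with a background of 12.4%. Cops8 had the smallest p. It measured 0.29, 0.31, 0.26 and 0.29 at 40 days and 0.63, 0.79, 0.82 and 0.51 at 80 days, a rise of 0.40 (p by limma 0.00055, adjusted p 0.0497). Every array at 80 days was above every array at 40 days, whereas in wild-type cord Cops8 changed by 0.091 (interval −0.11 to 0.29). Cul5 fell by 0.63 on the probe described above and by 0.22 on A_51_P501107 (p by limma 0.000719 and 0.00285). Ube2g2 rose by 0.28 on its brightest probe (p by limma 0.00154). The dim Ube2g2 probe A_51_P248441 had 0.18, given here too as a value alone. The genotype and age comparisons share arrays, so their values for a gene are not independent of each other. In both genotypes, age and the position of the array on the slide cannot be told apart.

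**Figure D4:**
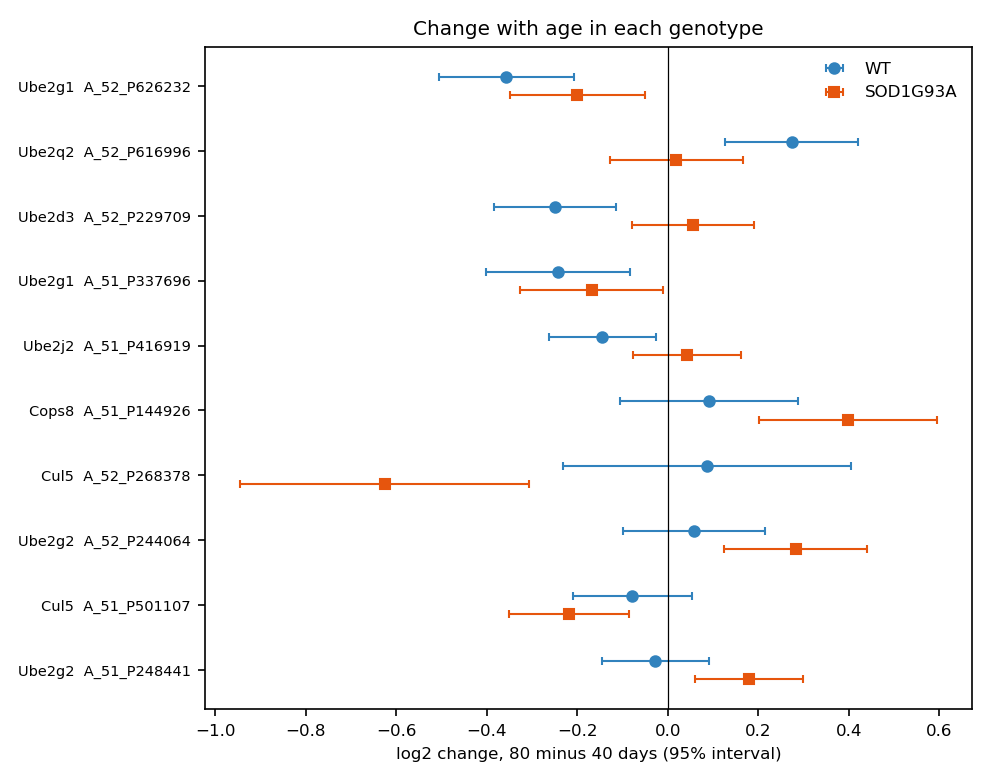
Log2 change from 40 to 80 days with its 95% interval in wild-type (blue circles) and SOD1G93A cord (orange squares), for the member probes with the 5 smallest p-values in either genotype. Both Ube2g1 probes lie below 0 in both genotypes, whereas Cops8 lies near 0.40 in SOD1G93A cord and 0.091 in wild-type cord, and the first Cul5 probe at −0.63 and 0.087.

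RefSeq entries for GRCm38.p6 held 61 promoters of 42 members under current symbols, and the 250 bases before the transcription start were searched on both strands for CACGTG (the E-box), TGACGTCA (the cyclic AMP response element), GGGCGG (the GC box), CCAAT (the CCAAT box) and TGACNNNGC (the core of the antioxidant response element). Of member promoters, 9.84% held CACGTG, against 6.02% of all 32851 promoters, and 63.9% held GGGCGG, against 32.7%. CCAAT was in 19.7%, against 33.8%, TGACGTCA in 1.64%, against 1.55%, and TGACNNNGC in 11.5%, against 10.2%. These are shares of letters in a window and say nothing of binding. Promoters of Nedd8, Ube2b and Cops8 are shown as examples. Each gene had a probe with an unadjusted p under 0.05 by limma for the difference between ages, and none passed adjustment. Other such genes, among them Cul5 and Ube2d3, are not shown. Matches to the 5 motifs are in capitals on the strand printed. Positions are counted back from the start site.
Nedd8, no match, chr14:55671881-55672130, minus strand: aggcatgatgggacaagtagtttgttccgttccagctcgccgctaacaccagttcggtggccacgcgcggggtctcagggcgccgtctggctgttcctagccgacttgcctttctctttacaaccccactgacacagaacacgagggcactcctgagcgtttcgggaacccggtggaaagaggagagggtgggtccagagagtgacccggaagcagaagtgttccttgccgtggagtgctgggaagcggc
Ube2b, first start site, CACGTG at −107, −76 and −10, chr11:52000787-52001036, minus strand: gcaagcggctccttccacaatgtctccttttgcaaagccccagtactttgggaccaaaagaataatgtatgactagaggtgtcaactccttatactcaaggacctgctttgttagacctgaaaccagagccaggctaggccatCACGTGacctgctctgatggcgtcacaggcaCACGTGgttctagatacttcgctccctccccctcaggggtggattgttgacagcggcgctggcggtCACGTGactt
Ube2b, second start site, GGGCGG at −46 (as its complement) and −8, chr11:52000492-52000741, minus strand: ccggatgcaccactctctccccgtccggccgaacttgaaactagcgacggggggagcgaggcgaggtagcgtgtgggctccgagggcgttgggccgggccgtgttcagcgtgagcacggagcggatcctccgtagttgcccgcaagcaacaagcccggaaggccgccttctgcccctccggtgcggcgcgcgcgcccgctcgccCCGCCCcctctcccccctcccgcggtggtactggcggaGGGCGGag
Cops8, CACGTG at −237 and GGGCGG at −79 and −35 (as its complement), chr1:90603175-90603424, plus strand: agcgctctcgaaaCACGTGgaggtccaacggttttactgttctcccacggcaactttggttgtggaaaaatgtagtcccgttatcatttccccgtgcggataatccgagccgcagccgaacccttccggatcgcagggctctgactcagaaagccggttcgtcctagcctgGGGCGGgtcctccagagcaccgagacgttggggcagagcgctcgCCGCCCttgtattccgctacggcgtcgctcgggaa

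Other genes of the pathway, outside the naming rule, give the setting at 80 days, where 3.68% of all probes were higher and 3.18% lower. Among partners of the NEDD8 cycle and of cullin-RING ligases, 1 of 41 probes rose (Rnf7, the RING subunit that pairs with Cul5, by 0.15) and 0 fell, with a median of −0.025. Of the ubiquitin precursors and other E1s, 1 of 10 rose and 1 fell (Ube1l2, by 0.15). In the SUMO pathway 1 of 29 rose (Sumo3, by 0.38) and 3 fell, the SUMO proteases Senp2 (−0.17) and Senp5 (−0.17) and the ligase Pias2 (−0.14). Of HECT ligases and E4 factors 3 of 45 rose, namely Ube4b (0.21), Herc2 (0.21) and Ndfip1 (0.17), an adaptor of Nedd4-type ligases, and 2 fell, namely Huwe1 (−0.27) and Itch (−0.17). Deubiquitinases had 1 of 32 lower (Usp15, by 0.27), and endoplasmic reticulum ligases 2 of 19 higher, both probes of Rnf5 (each by 0.31). None of 11 interferon-induced probes passed (0 of 11), although all 11 changes were above 0 with a median of 0.17, and SOD1G93A replicate 4 stood apart from the other arrays as given above. Of the genes of dividing cells 0 of 7 passed.

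At 40 days, with 2.5% of all probes higher and 2.02% lower, the same lists held 3 of 42 higher among partners of the NEDD8 cycle (Tceb1 by 0.13, the NEDD8 protease Senp8 by 0.15, and Dcun1d4 by 0.18), 0 of 10 ubiquitin precursors and E1s, and 2 of 29 in the SUMO pathway (Senp7 by 0.15 and Senp5 by 0.16). Of HECT ligases 2 of 45 were higher (Huwe1 by 0.29 and Wwp1 by 0.17), of deubiquitinases 1 of 33 (Cyld, by 0.28), and of endoplasmic reticulum ligases 1 of 19 was lower (Derl1, by −0.18). Interferon-induced genes had 0 of 10 past the threshold and genes of dividing cells 0 of 8.

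Cell type markers are given beside the members for each comparison. At 40 days 12 of 12 astrocyte probes were above 0 in the SOD1G93A comparison, where 11001 of all 21338 probes were. Of the 12, 4 passed (S100b 0.24, Gfap 0.24, Slc1a2 0.19 and Slc1a3 0.19), against 2.5% of all probes higher and 2.02% lower. Several of the 12 measure the same gene, on the same arrays, so they are not independent of each other. The summed Cy3 signal was 36721 to 46800 units in wild-type cord and 43680 to 50227 in SOD1G93A cord. Of 11 oligodendrocyte probes 11 were above 0 and 3 passed, of which Mbp was at 0.15, with 73784 to 91185 against 89035 to 91657 units. Schwann cell probes were below 0 in 4 of 4 cases (median −0.79) and meningeal probes in 5 of 5 (median −0.69), with 0 past the threshold in each and with wide ranges of 173 to 1140 and 771 to 3552 units in wild-type cord against 173 to 534 and 687 to 2387 in SOD1G93A cord.

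At 80 days 7 of 7 erythrocyte probes were below 0 (median −0.21, 0 past the threshold), with 4469 to 7333 units in wild-type cord against 4656 to 5196, and 5 of 5 skeletal muscle probes were above 0 (median 0.52, 0 past), with 381 to 1659 against 434 to 1953. Mog rose by 0.27 and Slc1a2 and Syt1 fell by 0.27 and 0.33. Over all probes at that age 3.68% were higher and 3.18% lower, with a median change of −0.0020. Over whole lists, the median deviation from the 16-array means averaged −0.13 in wild-type and −0.068 in SOD1G93A cord for 11 oligodendrocyte probes. The averages were 0.029 and −0.039 for 12 astrocyte probes and 0.054 and −0.031 for 13 neuronal probes. In each of these lists the arrays of the genotypes overlapped. Of 3 motor neuron, 10 microglial and 6 endothelial probes 0 passed in each list. Of 7 probes for genes of the reference organs, 2 were lower (Myh6 by 0.23 and Nppa by 0.15). Wild-type replicate 3 stood apart in the same median deviation of microglial probes, at 0.60 against −0.20 to −0.02 on the other wild-type arrays.

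In the difference between ages 5 of 12 astrocyte probes (41.7%, against 6.72% of all probes) were more negative at 80 days, and 11 of 12 lay below 0, with a median of −0.25. Of 13 neuronal probes 3 were more negative, with a median of −0.15. With age in wild-type cord 3 astrocyte probes were higher and 1 lower of 12, 3 of 11 oligodendrocyte probes were lower, 3 of 13 neuronal probes higher and 2 of 6 endothelial probes lower, where 15.2% of all probes passed. With age in SOD1G93A cord 5 of 11 oligodendrocyte probes were lower and 1 higher (54.5%, against 16.9% of all probes), with a median of −0.22, and 4 of 12 astrocyte probes were lower and 1 higher (41.7%), with a median of −0.19. The summed oligodendrocyte signal in SOD1G93A cord was 89035 to 91657 units at 40 days and 71992 to 81658 at 80 days. The part of these markers in the changes of the members was not tested.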

How the data were processed

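Cy3 (cord) and Cy5 (reference) intensities were deposited by the authors as scanner output of 16 two-colour Agilent arrays, made with Agilent Feature Extraction 9.5.3.1 per the submitters' processing notes. The authors' normalized log2 ratios, deposited in the series matrix and normalized separately for each age, served as an alternative for the genotype comparisons and were not used for age.

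Median signals were corrected by normexp (offset 50) after local backgrounds over 20 units above their spot were reset to the array's median background of that channel. Ratios were normalized by loess within arrays and Aquantile between arrays, control and outlier spots were left out, and spots of a probe were averaged. Testing required a probe to be well above background in Cy3 on 3 or more of the 4 arrays of any group and to have values on 2 or more arrays in every group. Genotypes were compared with limma (lmFit and eBayes) over the 8 arrays of an age, and ages and the difference between ages over all 16 arrays with 4 group means. Calls were made at the threshold of the study's methods, a two-sided p below 0.05 before adjustment, with Benjamini-Hochberg adjusted values beside them. The exact permutation test of the difference of means is two-sided. The number of arrays limits the precision.

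Members and gene lists were chosen with earlier results of these data known. Named genes were those that the study's text or supplementary gene lists give as changed (Nedd4, Ube2b, Ube2d3, Ube2m, Ube2o, Ube2g2, Nedd8, Fbxw7, Cops8), member probes called with no overlap between genotypes at an age, and the 5 with the smallest p for the difference between ages and for age in each genotype. The first set was chosen by the study on these samples and is not independent evidence. Some genes are not reported here by name, although the counts hold their probes. Other member probes past the threshold were named after their values were seen. A gene with several probes is represented by the one with the highest mean Cy3 signal. Old symbols were kept as the files give them, where Ube1x is now Uba1, Ube1c Uba3, Ube2d2 Ube2d2a and Ube2q Ube2q1.

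Replicate numbers follow the slide. Pooled over the comparisons, arrays on the same slide deviated from their group means with correlations from −0.064 to 0.23. Those on other slides had −0.30 to 0.23, and the main fits did not pair the samples. For age in SOD1G93A cord, however, every same-slide correlation (0.089 to 0.23) was above every other-slide one (−0.18 to 0.073). With the replicate as a block, 20 member probes passed in that comparison (18.5%, background 16.7%). Alternatives covered background, normalization, channel, filter, weights, prior, block and single arrays left out. Probe bases and mm7 coordinates come from the array files and promoters from RefSeq. Sequence on chromosome 18 was not shown for 3 symbols. Scripts were tested on simulated data. Software was R 4.3.3 with limma 3.58.1, data.table (version 1.17.8) and jsonlite 2.0.0, and Python 3.11.15 with pandas 2.3.3 and matplotlib 3.10.9.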

Additional observations from a re-analysis of the deposited data

Results flagged for a closer look

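Of 116 groups of 4 arrays examined for named probes, 4 held an array whose gap to its nearest neighbour exceeded Dixon's critical value of 0.829 of the group's range, where chance gives about 1 in 20. Wild-type replicate 1 at 80 days measured 0.63 for Cops8, while the other 3 arrays lay between 0.40 and 0.42. SOD1G93A replicate 3 at 80 days measured 1.85 for Ube2o on probe A_51_P499061, while the others lay between 1.52 and 1.56. Wild-type replicate 4 at 80 days measured −0.34 for Cul5 on probe A_51_P501107, while the others lay between −0.16 and −0.14. Wild-type replicate 4 at 40 days measured −0.37 for Ube2g2 on probe A_52_P244064, while the others lay between −0.49 and −0.48.

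The genotype change differed between 80 and 40 days, at an unadjusted p under 0.05 in limma's direct test of the difference, for 11 member probes (10.2%, against 6.72% of all probes). The change was more negative at 80 days by −0.24 for Ube2b, −0.71 for Cul5, −0.26 for Nedd8, −0.30 for Nedd4, and −0.25 and −0.26 for 2 probes of Ube2q2. It was more positive by 0.30 for Ube2d3, 0.21 and 0.23 for 2 probes of Ube2g2 (the first well above background on only 2 of 4 wild-type arrays at each age), 0.19 for Ube2j2 and 0.31 for Cops8. For Cops8 the exact permutation p was 0.0514, above the threshold, and none of the 11 passed adjustment over all probes (0 of 11).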

How the results depend on the processing

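Counts of member probes past the threshold depended on the processing as follows. At 40 days the 5 became 1 with no reset of bright backgrounds (0.935%, against 1.17% of all probes, from 4.51%). The count was 3 without loess (0 higher and 3 lower, 2.8% against 3.78%) and 3 with Cy3 alone (3 higher, 2.8% against 2.6%). The replicate block gave 2 (2 higher, 1.87% against 4.56%) and the series matrix 2 (2 higher, 1.87% against 2.52%). At 80 days the 19 became 8 with Cy3 alone (6 higher and 2 lower, 7.41% against 5.22%). The series matrix gave 10 (8 and 2, 9.26% against 5.26%), and processed signals gave 13 (8 and 5, 12% against 7.03%). The difference between ages had 6 with Cy3 alone (1 and 5, 5.56% against 4.48%) in place of 11, and 13 without loess (12 and 1, 12% against 8.21%). Change with age in SOD1G93A cord had 12 without loess (10 and 2, 11.1% against 11.3%) and 10 with Cy3 alone (5 and 5, 9.26% against 12.1%) in place of 20. In wild-type cord the split was 0 and 11 without loess (10.2% against 13.9%) and 8 and 4 with Cy3 alone (11.1% against 11.5%), in place of 3 and 6. Leaving out each array in turn gave 2 to 9 at 40 days (1.87% to 8.41%, background 3.4% to 8.97%). At 80 days it gave 5 to 16 (4.63% to 14.8%, background 4.52% to 8.58%). For the difference between ages it gave 6 to 15 (5.56% to 13.9%, background 5.49% to 8.23%). For age it gave 5 to 13 in wild-type cord (4.63% to 12%, background 12.1% to 16%). In SOD1G93A cord it gave 15 to 24 (13.9% to 22.2%, background 12.3% to 18.3%). The replicate block gave 18 at 80 days (16.7%, background 7.87%) and 9 for the difference between ages (8.33%, background 6.86%). Without the 3 arrays with reset backgrounds, chosen after seeing the data, the counts were 5, 16, 12, 9 and 16. Their shares were 4.67%, 14.8%, 11.1%, 8.33% and 14.8%, against 5.51%, 7.74%, 7.69%, 14.4% and 15.3% of all probes. At 80 days a Ube2o probe (A_51_P499061) kept an unadjusted p under 0.05 under every setting run, and Nedd8 lost it without loess (−0.19, p by limma 0.0555). Of the 19 calls at 80 days, 9 held with processed signals, 8 in the series matrix and 7 with Cy3 alone.

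Reversed signs were found only among small changes, other probes of a gene, a Ube2d3 probe and a Cops5 probe. At 40 days Nedd8 was −0.0019 with no reset, −0.00079 with no background subtraction, −0.082 without loess and −5.6e-05 with array weights. Without loess Fbxw7 was −0.029, Ube2b −0.027, Ube2m −0.0092 and Ube2o −0.046. Array weights gave Ube2m −0.0040. The series matrix gave Ube2o −0.022 and Ube2d3 (A_52_P229709) 0.0095, and Ube2o was −0.0040 without arrays with reset backgrounds. Other probes gave Nedd4 −0.035, Ube2b −0.022 and −0.0082, Ube2d3 0.012 and Ube2g2 0.092. At 80 days Fbxw7 was 0.036 and Ube2b 0.029 without loess, and Ube2d3 −0.014 with array weights. Other probes there gave Fbxw7 0.20, Nedd4 0.028, Ube2b 0.058 and 0.040, Ube2d3 −0.11 and Ube2o −0.042. Cops5 (A_52_P240090) changed with age in wild-type cord by −0.12 without loess. With 1 array left out, ranges crossed 0 at 40 days for Cops8 (−0.16 to 0.0084), Fbxw7 (−0.028 to 0.068), Nedd8 (−0.020 to 0.031), Ube2m (−0.030 to 0.23) and Ube2o (−0.032 to 0.12), and at 80 days for Fbxw7 (−0.055 to 0.034), Ube2b (−0.090 to 0.019) and Ube2d3 (−0.026 to 0.070). The causes were not tested.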
